A study of Mus musculus with 10 samples.

Results

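The death receptor pathway was examined through 9 listed genes: the receptors Fas, Tnfrsf10b and Tnfrsf1a, the adaptor and kinase genes Fadd and Ripk1, the caspase gene Casp8, and Cflar, Bid and Xiap. Each gene was represented by its transcript cluster with exactly 1 gene symbol in the platform annotation, and by the cluster with the highest mean over the 10 arrays where a symbol had several. Of the 9 genes, 8 were measured in this way, out of 22180 genes in all. Ripk1 had no such cluster and was not analysed here.

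RNA from 10 mouse samples was hybridised to arrays, in 3 groups. The first held 3 arrays of hepatocyte-like cells (ES_HLC) made by differentiation of embryonic stem cells. The second held 3 arrays of adult hepatocytes (Ad_Hep), with liver as their source, and the third held 4 arrays of undifferentiated embryonic stem cells (mESC). All groups shared the strain label, a C.FVB line, L2G85Chco/FathJ, with the transgene Tg(CAG-luc, GFP), in which the broadly active CAG promoter drives luciferase and GFP, and all carried a passage label of below 20. The age of the animals, the number of stem cell clones and the differentiation steps were not given in the labels used here. The study concerned NKG2D, through which natural killer cells recognise stressed targets, in the killing of hepatic cells, and the 3 cell kinds are compared here as possible targets of killer cells.

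Killer lymphocytes can kill through granules or through ligands of the tumour necrosis factor (TNF) family, which bind death receptors on the target. The ligands FasL and TRAIL cluster Fas and the TRAIL receptor, whose intracellular death domains recruit the adaptor FADD and, through it, caspase-8. The protein cFLIP, encoded by Cflar, competes with caspase-8 at FADD, while TNF receptor 1 (Tnfrsf1a) first assembles a complex with RIPK1 that serves survival signalling. Hepatocytes are known as cells in which Fas killing runs through BID, a protein that caspase-8 cleaves and that then acts on mitochondria, and in which XIAP restrains the executioner caspases.

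Levels are given as log2 signal of the deposited table, on which a difference of 1 is a doubling of signal, and levels of different genes are not compared. Array medians lay between 4.91 and 5.07, so a level near 5 is close to the middle of all clusters and a fold against it is uncertain. Differences are given ± SE from limma with Benjamini-Hochberg adjusted p-values over all 22180 genes, and a gene was called, and is said to have risen or fallen, at an adjusted p under 0.05 with a log2 difference of at least 1. The 3 comparisons share arrays, so their values are given side by side and not as separate support for each other. The number of arrays limits the precision, and beyond the biorep numbers in the titles nothing says that the samples came from separate cultures or animals, so the p-values reflect only how these samples spread.

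The labelled cell kinds were checked against markers. The mean level of 10 hepatocyte markers lay between 5.36 and 6.92 on the hepatocyte-like arrays, between 11.93 and 12.10 on the adult hepatocyte arrays and between 4.88 and 5.09 on the stem cell arrays. Relative to adult hepatocytes all 10 fell in hepatocyte-like cells, and 2 of 10, Ttr and Apoa1, were called higher than in stem cells, so the hepatocyte label of these cells rested on few mature markers. The mean of 8 pluripotency markers was 5.02 to 5.78 in hepatocyte-like cells, 4.79 to 4.98 in adult hepatocytes and 9.26 to 9.32 in stem cells. Hepatocyte-like replicate 3 stood apart, with 10.80 for Alb against 4.85 and 5.14 in replicates 1 and 2, and 7.12 for Nanog against 5.08 and 5.09. Markers of other liver cells also moved with the groups, as the plot of marker lists shows. The mean of 12 Kupffer cell and macrophage markers was 4.68 to 4.80 in hepatocyte-like cells, 6.12 to 6.42 in adult hepatocytes and 4.70 to 4.81 in stem cells, with 1 of 12 (Ptprc) averaging below every array median in adult hepatocytes. Of the 12, 10 rose in adult hepatocytes relative to stem cells, and 10 fell in hepatocyte-like cells relative to adult hepatocytes. The exceptions were Marco, which was called in neither comparison, and Cd68, which fell by 2.46 in adult hepatocytes relative to stem cells. The mean of 10 endothelial markers was 5.44 to 5.84 in hepatocyte-like cells, 7.49 to 7.74 in adult hepatocytes and 5.92 to 6.20 in stem cells. Its members did not all move together. In adult hepatocytes relative to stem cells 6 rose and 2 fell, Pecam1 (-2.23) and Vwf (-1.35). In hepatocyte-like cells relative to stem cells 2 rose, Kdr (2.63) and Cdh5 (1.72), and 4 fell. The mean of 10 stellate cell and fibroblast markers was 7.36 to 9.27 in hepatocyte-like cells, 6.46 to 6.48 in adult hepatocytes and 5.12 to 5.40 in stem cells. Within this list 6 genes, collagens, Acta2, Des and Postn, rose in hepatocyte-like cells relative to adult hepatocytes, while Lrat, Reln and Dcn fell by 3.56, 2.34 and 1.90. For 5 cholangiocyte markers the mean was 6.90 to 7.71 in hepatocyte-like cells, 4.74 to 4.88 in adult hepatocytes and 5.55 to 5.72 in stem cells. Relative to adult hepatocytes, 4 of them rose and 0 fell in hepatocyte-like cells. Epcam averaged 9.04 in stem cells, above its 8.16 in hepatocyte-like cells, and Cftr averaged below every array median in all groups. Of 10 lymphocyte markers, 7 averaged below every array median in hepatocyte-like cells, 7 in adult hepatocytes and 6 in stem cells. Cd3e and Cd3g averaged 7.29 and 6.91 in stem cells and fell in both hepatic groups relative to them. The part of these other cell types in the values below was not tested.

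**Figure D1:**
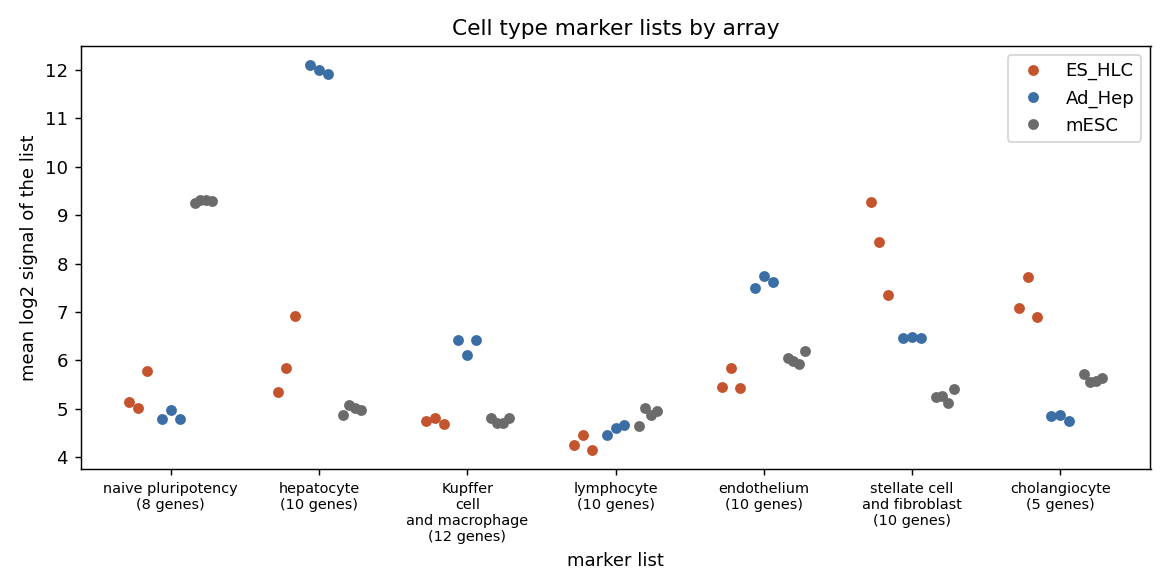
Mean log2 signal of 7 cell type marker lists (x axis) on each array (points), coloured by group. Adult hepatocytes stand between 11.93 and 12.10 in the hepatocyte list and highest in the Kupffer cell and endothelial lists, stem cells stand at 9.26 to 9.32 in the pluripotency list, and hepatocyte-like cells are highest in the fibroblast and cholangiocyte lists.

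Among the 8 measured genes, 4 rose in hepatocyte-like cells relative to stem cells (Fas, Tnfrsf1a, Casp8 and Cflar) and 0 fell, where 16.0% of all genes were called (8.61% higher and 7.35% lower). Relative to adult hepatocytes, hepatocyte-like cells had 1 gene that rose (Tnfrsf10b) and 1 that fell (Cflar), where 23.0% of all genes were called (13.9% higher and 9.12% lower). Adult hepatocytes relative to stem cells had 5 genes that rose (Fas, Tnfrsf1a, Casp8, Cflar and Xiap) and 1 that fell (Tnfrsf10b), where 26.6% of all genes were called (11.0% higher and 15.6% lower). The median difference of the 8 genes was 1.03 for hepatocyte-like against stem cells, -0.06 for hepatocyte-like cells relative to adult hepatocytes and 1.65 for adult hepatocytes against stem cells. Over all genes these medians were -0.01, -0.04 and 0.05. Fadd and Bid were called in none of the 3 comparisons.

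**Figure D2:**
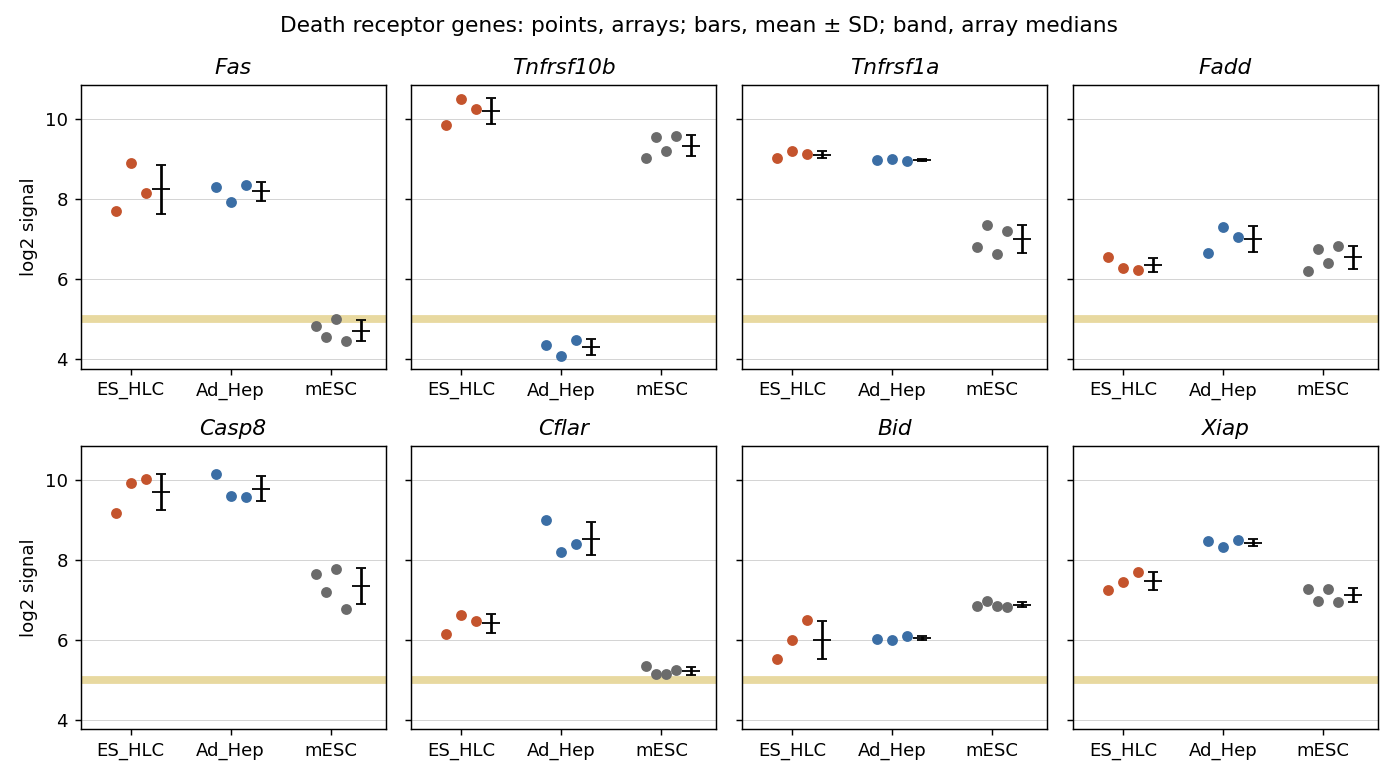
Log2 signal (y axis) of the 8 measured death receptor genes on every array (points), by group, with mean ± SD beside the points and the range of array medians as a band. Fas, Tnfrsf1a and Casp8 lie at like levels in hepatocyte-like cells and adult hepatocytes and lower in stem cells, while Tnfrsf10b is lowest in adult hepatocytes, at 4.07 to 4.47.

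Fas encodes the receptor of FasL, a ligand of cytotoxic T cells and natural killer cells. Its log2 signal was 7.69, 8.89 and 8.13 on the hepatocyte-like arrays, 8.30, 7.92 and 8.35 on the adult hepatocyte arrays, and 4.83, 4.54, 5.002 and 4.45 on the stem cell arrays. Both hepatic groups lay above every stem cell array, and they overlapped each other. The stem cell values lay at or below the array medians, where signal and background cannot be separated in these data. Fas rose by 3.53 ± 0.26 in hepatocyte-like cells over stem cells (limma, adjusted p = 6.32e-07), about 11.6-fold, and by 3.49 ± 0.26 in adult hepatocytes over stem cells (limma, adjusted p = 1.71e-07), about 11.2-fold. Between hepatocyte-like cells and adult hepatocytes the difference was 0.05 ± 0.27 (limma, adjusted p = 0.916), with a 95% interval of -0.55 to 0.64. Since these are bulk samples, fewer cells carrying Fas and less Fas RNA per cell cannot be told apart.

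Tnfrsf10b encodes the mouse receptor of TRAIL that carries a death domain. It gave the largest differences of the 8 genes, and adult hepatocytes were the group that stood apart. Its log2 signal was 9.84, 10.49 and 10.25 in hepatocyte-like cells, 4.34, 4.07 and 4.47 in adult hepatocytes, and 9.02, 9.54, 9.20 and 9.56 in stem cells. The 3 groups did not overlap, and the adult hepatocyte values lay below all array medians. Tnfrsf10b rose in hepatocyte-like cells relative to adult hepatocytes by 5.90 ± 0.22 (limma, adjusted p = 2.46e-10), nominally 59.8-fold, and in adult hepatocytes it fell by 5.04 ± 0.20 relative to stem cells (limma, adjusted p = 4.38e-10), nominally 32.8-fold lower. Between hepatocyte-like cells and stem cells the difference was 0.86 ± 0.20 (limma, adjusted p = 0.00552), with a 95% interval of 0.43 to 1.30, which is short of the log2 difference of 1 that a call needs. Without hepatocyte-like replicate 1 it was 1.04 and was called.

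Tnfrsf1a encodes TNF receptor 1, whose engagement gives survival or death signals depending on the complex that forms. The arrays read 9.01, 9.19 and 9.12 in hepatocyte-like cells, 8.97, 9.004 and 8.95 in adult hepatocytes, and 6.79, 7.36, 6.62 and 7.20 in stem cells. All 6 hepatic arrays lay close together and above the highest stem cell array. Tnfrsf1a rose by 2.11 ± 0.18 in hepatocyte-like cells (limma, adjusted p = 3.19e-06) and by 1.98 ± 0.18 in adult hepatocytes (limma, adjusted p = 1.57e-06), each relative to stem cells. The difference of hepatocyte-like cells from adult hepatocytes was 0.13 ± 0.20 (limma, adjusted p = 0.657; 95% interval -0.30 to 0.56), although the 2 groups' arrays did not overlap. The SD within hepatocyte-like cells was 0.09 and within adult hepatocytes 0.03, against 0.35 in stem cells (n = 3, 3 and 4).

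FADD is the death domain adaptor that links Fas and the TRAIL receptor to caspase-8. Fadd read 6.54, 6.28 and 6.21 in hepatocyte-like cells, 6.66, 7.30 and 7.05 in adult hepatocytes, and 6.20, 6.75, 6.39 and 6.81 in stem cells. Hepatocyte-like cells overlapped stem cells and lay just below adult hepatocytes. The differences were -0.20 ± 0.20 for hepatocyte-like against stem cells (limma, adjusted p = 0.558), -0.66 ± 0.22 for hepatocyte-like cells relative to adult hepatocytes (limma, adjusted p = 0.0310; 95% interval -1.13 to -0.19) and 0.46 ± 0.20 for adult hepatocytes against stem cells (limma, adjusted p = 0.0915). None reached a log2 difference of 1.

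Casp8 encodes caspase-8, the initiator caspase of the pathway. Its log2 signal was 9.16, 9.90 and 10.002 in hepatocyte-like cells, 10.13, 9.60 and 9.58 in adult hepatocytes, and 7.65, 7.18, 7.75 and 6.76 in stem cells. As with Fas, the 2 hepatic groups overlapped and both lay above all stem cell arrays. Casp8 rose by 2.35 ± 0.27 in hepatocyte-like cells (5.11-fold; limma, adjusted p = 3.51e-05) and by 2.43 ± 0.27 in adult hepatocytes (5.40-fold; limma, adjusted p = 9.00e-06), each over stem cells. Hepatocyte-like cells differed from adult hepatocytes by -0.08 ± 0.29 (limma, adjusted p = 0.866), with a 95% interval of -0.72 to 0.56.

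Cflar encodes cFLIP, a caspase-8 homologue that, in its long form, has no protease activity of its own and restrains caspase-8 at the receptor. It was the measured gene in which each group was called different from each other group. The arrays read 6.14, 6.61 and 6.46 in hepatocyte-like cells, 8.99, 8.20 and 8.38 in adult hepatocytes, and 5.34, 5.13, 5.13 and 5.23 in stem cells. The order was adult hepatocytes, hepatocyte-like cells, stem cells, with no overlap between groups. The stem cell values lay just above the array medians, so folds against them are uncertain. Cflar rose by 1.19 ± 0.20 in hepatocyte-like cells over stem cells (2.29-fold; limma, adjusted p = 5.59e-04) and by 3.31 ± 0.20 in adult hepatocytes over stem cells (9.94-fold; limma, adjusted p = 2.30e-08). In hepatocyte-like cells it fell by 2.12 ± 0.21 relative to adult hepatocytes (4.35-fold lower; limma, adjusted p = 4.40e-06). Splice forms of cFLIP were not separated by the cluster. Of the 12 Kupffer cell and macrophage markers, 10 were likewise called higher in adult hepatocytes than in each other group, all but Marco and Cd68. Marco also had its highest mean in adult hepatocytes (5.31) but was not called. The part of these cells in the Cflar difference was not tested.

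Casp8 and Cflar, which lie near each other on mouse chromosome 1, thus gave -0.08 and -2.12 between hepatocyte-like cells and adult hepatocytes. The plot of differences sets all 8 genes side by side.

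**Figure D3:**
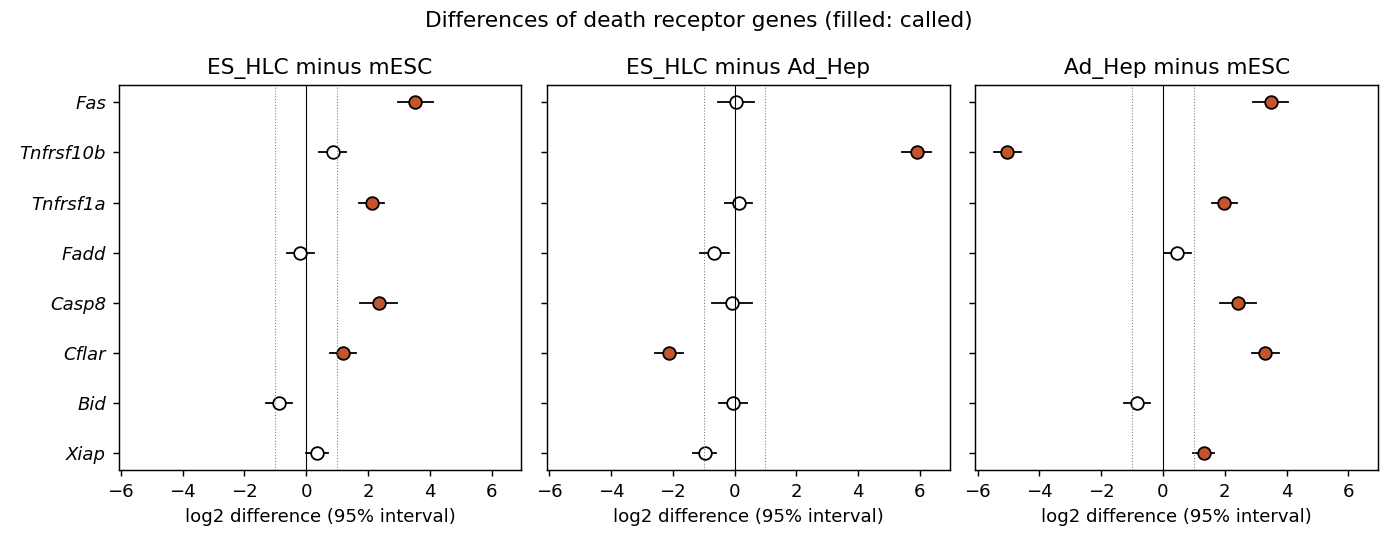
Log2 differences (x axis) of the 8 measured genes with 95% intervals from limma, for the 3 comparisons; filled points are called, open points are not, and dotted lines mark a log2 difference of 1 either way. Fas, Tnfrsf1a and Casp8 lie near 0 between hepatocyte-like cells and adult hepatocytes, where Tnfrsf10b lies at 5.90 and Cflar at -2.12.

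Fas, Tnfrsf1a, Casp8 and Cflar were the genes that rose over stem cells in both hepatic groups, and their promoter windows are shown for that reason. The sequences are RefSeq's for GRCm38.p6, from 250 bases before to 50 bases after an annotated start, 5′ to 3′ on the plus strand, which is the strand of all 4 genes. The windows are chr19:34290409-34290708 for Fas, chr6:125349473-125349772 for Tnfrsf1a, chr1:58802252-58802551 for Casp8 and chr1:58711241-58711540 for Cflar. The annotated span of Casp8 begins upstream of its window, so this is one of its possible starts. Those of Fas and Cflar begin inside their windows, at 34290647 and 58711311, before the start used here. Capitals mark matches, on either strand, to 4 short motifs: GGGCGG (the GC box bound by SP1), TATAAA (the TATA box), CCAAT (the CCAAT box) and AANNGAAA (the core bound by interferon regulatory factors, IRFs).
Fas: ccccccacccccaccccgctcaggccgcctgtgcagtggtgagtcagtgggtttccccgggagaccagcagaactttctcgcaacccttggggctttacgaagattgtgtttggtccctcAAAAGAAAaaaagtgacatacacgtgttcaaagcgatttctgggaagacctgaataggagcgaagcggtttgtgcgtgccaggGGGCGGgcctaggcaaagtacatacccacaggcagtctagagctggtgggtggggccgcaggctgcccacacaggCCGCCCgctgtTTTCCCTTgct
Tnfrsf1a: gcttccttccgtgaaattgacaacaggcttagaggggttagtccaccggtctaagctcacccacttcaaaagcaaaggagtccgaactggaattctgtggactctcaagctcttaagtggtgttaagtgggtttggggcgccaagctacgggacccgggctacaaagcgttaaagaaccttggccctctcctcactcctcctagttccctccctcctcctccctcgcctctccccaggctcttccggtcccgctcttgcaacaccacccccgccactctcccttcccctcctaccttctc
Casp8: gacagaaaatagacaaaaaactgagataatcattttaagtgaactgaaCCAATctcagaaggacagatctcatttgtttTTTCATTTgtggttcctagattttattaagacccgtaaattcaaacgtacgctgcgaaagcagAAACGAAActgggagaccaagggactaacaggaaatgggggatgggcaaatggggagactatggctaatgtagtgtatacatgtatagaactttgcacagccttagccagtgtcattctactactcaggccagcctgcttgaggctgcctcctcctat
Cflar: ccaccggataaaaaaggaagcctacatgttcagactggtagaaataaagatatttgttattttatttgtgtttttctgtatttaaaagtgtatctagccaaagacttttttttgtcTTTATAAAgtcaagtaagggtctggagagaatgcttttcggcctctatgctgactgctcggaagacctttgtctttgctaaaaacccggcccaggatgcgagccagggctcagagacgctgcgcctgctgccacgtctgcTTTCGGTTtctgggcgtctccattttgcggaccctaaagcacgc
Fas held 2 GC boxes, first bases at -47 and 29 from the start, and 2 IRF cores, at -130 and 40. Casp8 held 2 IRF cores, at -171 and -108, and 1 CCAAT box at -202, and no GC box or TATA box. Cflar held an IRF core at 7 and 2 TATA box matches, at -134 and -132, that overlap on opposite strands. Both TATA box matches lie inside the annotated span of Cflar. Tnfrsf1a held none of the 4 motifs in this window. Of 32851 mouse promoter windows of the same length, 35.7% held the GC box, 13.6% the TATA box, 37.4% the CCAAT box and 23.9% the IRF core, so single matches are common. Matches are letters in a window, and binding was not measured.

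BID couples caspase-8 to the mitochondrial route. Bid read 5.50, 5.98 and 6.48 in hepatocyte-like cells, 6.02, 5.99 and 6.09 in adult hepatocytes, and 6.85, 6.96, 6.85 and 6.82 in stem cells. All hepatic arrays lay below all stem cell arrays, and the 2 hepatic groups overlapped. The differences from stem cells were -0.88 ± 0.20 in hepatocyte-like cells (limma, adjusted p = 0.00450; 95% interval -1.31 to -0.45) and -0.84 ± 0.20 in adult hepatocytes (limma, adjusted p = 0.00389; 95% interval -1.27 to -0.41), both short of the size that a call needs. Hepatocyte-like cells differed from adult hepatocytes by -0.04 ± 0.21 (limma, adjusted p = 0.900). The spread within hepatocyte-like cells was wide (SD 0.49, n = 3), against 0.06 in adult hepatocytes (n = 3) and 0.06 in stem cells (n = 4). Replicate 3, the array with raised Alb and Nanog, lay nearest to stem cells, and without it the difference from stem cells was -1.13 and was called.

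XIAP binds and blocks the executioner caspases, and Xiap lies on the X chromosome. Xiap read 7.24, 7.43 and 7.69 in hepatocyte-like cells, 8.46, 8.32 and 8.49 in adult hepatocytes, and 7.26, 6.97, 7.27 and 6.93 in stem cells. Adult hepatocytes lay above all other arrays, and hepatocyte-like cells overlapped stem cells. Xiap rose by 1.31 ± 0.16 in adult hepatocytes over stem cells (2.49-fold; limma, adjusted p = 2.09e-05). The difference was -0.97 ± 0.17 between hepatocyte-like cells and adult hepatocytes (limma, adjusted p = 6.79e-04), which was not called for its size, and 0.35 ± 0.16 between hepatocyte-like cells and stem cells (limma, adjusted p = 0.142; 95% interval -0.01 to 0.70). The value against adult hepatocytes sat at the edge of the threshold and was called with quantile normalization again (-1.10), cyclic loess (-1.24) and array weights (-1.01), as well as without hepatocyte-like replicate 3 (-1.08) and without adult hepatocyte replicate 2 (-1.02).

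Outside these genes, 106 further genes of the pathway were listed in 10 groups, some in 2 of them, and 95 were measured. Bax, which encodes a pore-forming effector, had no cluster with 1 symbol and was not analysed here. Of the 95, 16 rose and 6 fell in hepatocyte-like cells relative to stem cells (23.2% called, against 16.0% of all genes), 21 rose and 7 fell in hepatocyte-like cells relative to adult hepatocytes (29.5%, against 23.0%), and 15 rose and 18 fell in adult hepatocytes relative to stem cells (34.7%, against 26.6%). Their median differences were 0.10, 0.08 and 0.11 in that order of comparisons, against -0.01, -0.04 and 0.05 over all genes. The counts of single lists stand against the shares of all genes called: 8.61% higher and 7.35% lower for hepatocyte-like against stem cells, 13.9% and 9.12% for hepatocyte-like cells relative to adult hepatocytes, and 11.0% and 15.6% for adult hepatocytes against stem cells. The lists held 4 to 21 measured genes. In a list of 4 genes 1 call is already a larger share than any of these. Counts of 1 or 2 calls are therefore not read as a result about a list. Medians of single lists are given below in the same order. The heatmap shows the genes named by a rule of size.

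**Figure D4:**
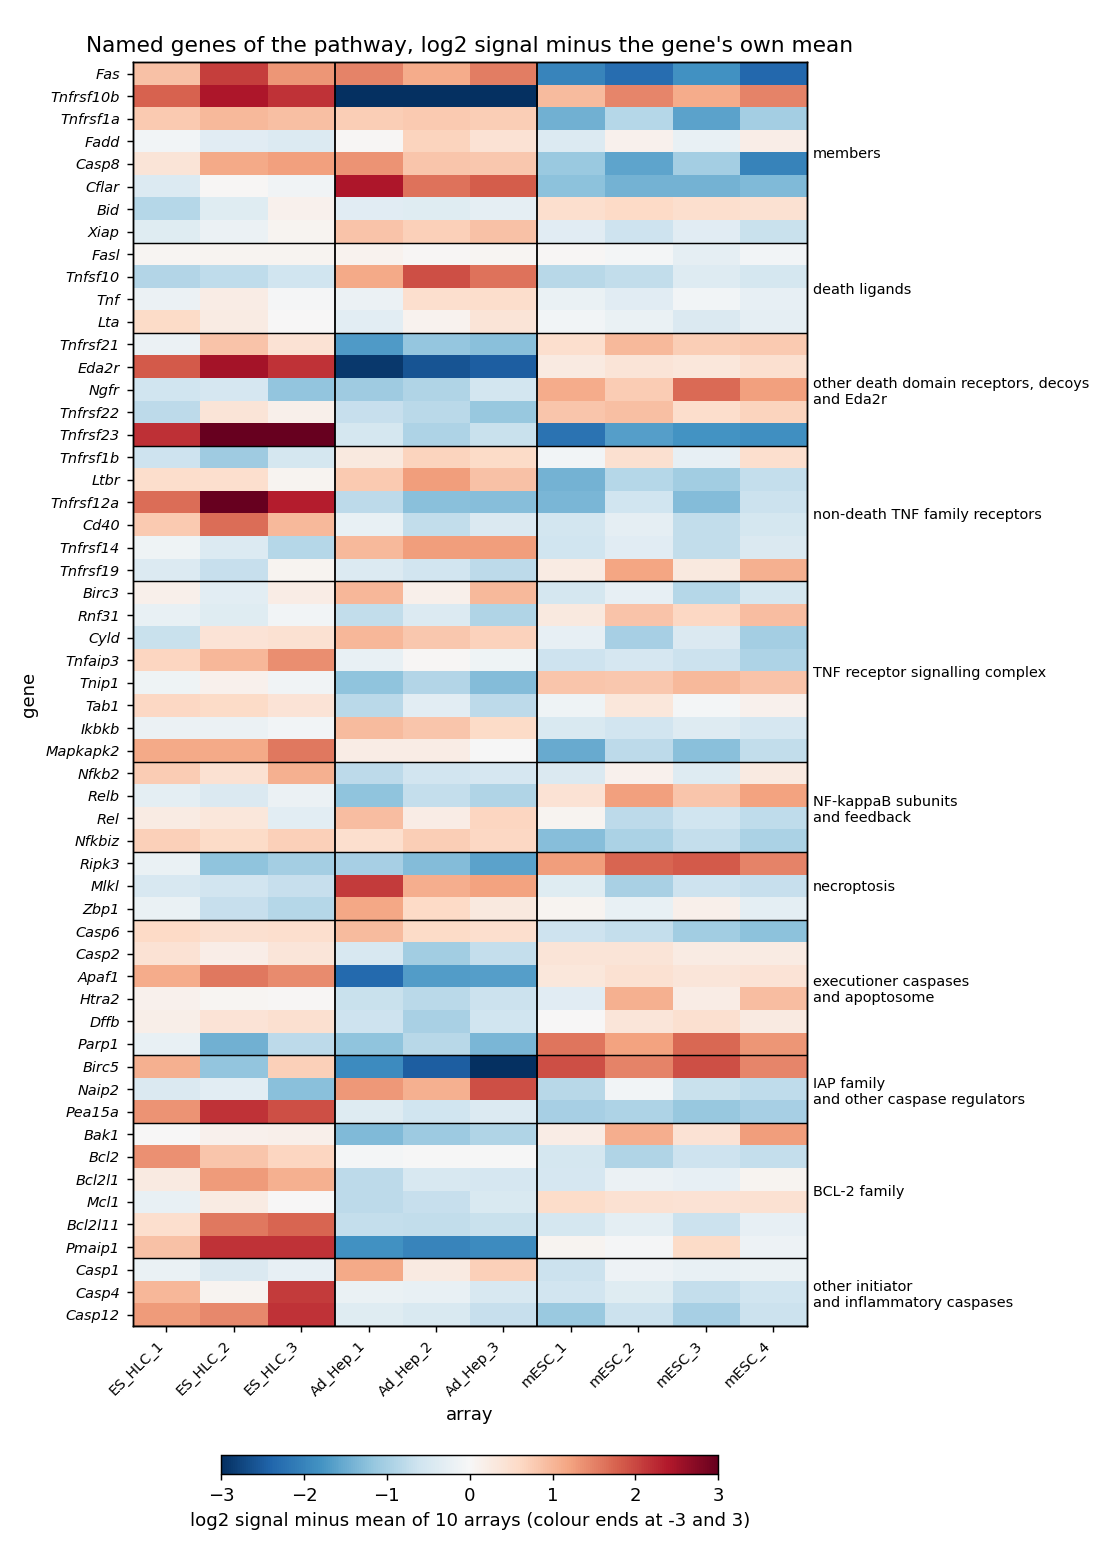
Log2 signal minus the mean over 10 arrays (colour, ending at -3 and 3) for the 8 measured death receptor genes and 48 further pathway genes (rows, grouped by role) on each array (columns). Tnfrsf10b, Eda2r, Apaf1 and Pmaip1 are low in all 3 adult hepatocyte arrays, and Fas and Casp8 are low in all 4 stem cell arrays.

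Of 5 measured death ligand genes, the 1 that was called in any comparison was Tnfsf10, which encodes TRAIL. It read 3.65, 3.77 and 3.94 in hepatocyte-like cells, 5.67, 6.46 and 6.15 in adult hepatocytes, and 3.70, 3.79, 4.15 and 4.01 in stem cells. Tnfsf10 fell by 2.31 ± 0.21 in hepatocyte-like cells relative to adult hepatocytes (limma, adjusted p = 1.89e-06) and rose by 2.18 ± 0.20 in adult hepatocytes over stem cells (limma, adjusted p = 1.24e-06). Adult hepatocytes were therefore the group with the highest Tnfsf10 and the lowest Tnfrsf10b, the genes of ligand and receptor. Kupffer cells and lymphocytes are known sources of TRAIL. Of 12 Kupffer cell and macrophage markers, 10 moved with Tnfsf10 while Cd68 moved the other way and Marco was not called. Most lymphocyte markers were below the array medians in all groups. The called ones, Cd3e and Cd3g, fell in adult hepatocytes relative to stem cells (-2.09 and -2.51), where Tnfsf10 rose. The part of either cell type was not tested. Fasl stayed between 3.96 and 4.34 on all 10 arrays, below every array median, and Tnf and Lta were called in none of the comparisons. The 5 ligand genes had median differences of 0.22, -0.10 and 0.43.

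In a list of 9 other receptors, made up of death domain receptors, decoys and Eda2r, which has no death domain of its own, 2 rose and 1 fell in hepatocyte-like cells relative to stem cells, 3 rose and 0 fell relative to adult hepatocytes, and 1 rose and 4 fell in adult hepatocytes relative to stem cells, with median differences of 0.08, 0.09 and 0.09. Tnfrsf23, a mouse decoy receptor for TRAIL, read 8.57, 10.81 and 9.36 in hepatocyte-like cells, 5.86, 5.47 and 5.72 in adult hepatocytes, and 4.16, 4.74, 4.58 and 4.55 in stem cells. It rose in hepatocyte-like cells by 5.07 ± 0.39 over stem cells (limma, adjusted p = 1.01e-06) and by 3.90 ± 0.42 over adult hepatocytes (limma, adjusted p = 7.71e-06). Its rise in adult hepatocytes over stem cells (1.18 ± 0.39; limma, adjusted p = 0.0273) was not called when adult hepatocyte replicate 1 (1.09), adult hepatocyte replicate 3 (1.15) or stem cell replicate 1 (1.06) was left out. Tnfrsf22, also a decoy receptor, went the other way against stem cells. Its difference was -0.82 ± 0.25 in hepatocyte-like cells (limma, adjusted p = 0.0256), which was not called. In adult hepatocytes it was -1.62 ± 0.25 (limma, adjusted p = 1.37e-04), which was called. Eda2r, the receptor of ectodysplasin A2, had the same order as Tnfrsf10b, with 8.65, 9.29 and 8.96 in hepatocyte-like cells, 3.92, 4.23 and 4.34 in adult hepatocytes, and 7.07, 7.18, 7.14 and 7.28 in stem cells. It rose by 4.81 ± 0.19 in hepatocyte-like cells over adult hepatocytes (limma, adjusted p = 4.99e-10) and by 1.80 ± 0.18 over stem cells (limma, adjusted p = 8.78e-06). Tnfrsf21, death receptor 6, rose by 1.75 ± 0.25 in hepatocyte-like cells over adult hepatocytes, and Ngfr, the p75 neurotrophin receptor, fell by 1.96 ± 0.24 in hepatocyte-like cells relative to stem cells.

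Among 8 TNF family receptors without a death domain, 3 rose and 1 fell in hepatocyte-like cells relative to stem cells, 2 rose and 2 fell relative to adult hepatocytes, and 2 rose and 1 fell in adult hepatocytes relative to stem cells, with median differences of 0.14, -0.11 and 0.25. The gene that fell relative to stem cells in both hepatic groups, Tnfrsf19, was not called for hepatocyte-like cells with cyclic loess (-0.99), with a replicate block (-0.92) or without hepatocyte-like replicate 2 (-0.87), stem cell replicate 2 (-0.89) or stem cell replicate 4 (-0.92). Tnfrsf12a, the receptor of TWEAK, rose in hepatocyte-like cells by 3.39 ± 0.32 over stem cells and by 3.52 ± 0.34 over adult hepatocytes, and Cd40 rose by 1.66 ± 0.22 and 1.61 ± 0.24. Ltbr, the lymphotoxin beta receptor, followed Fas, Tnfrsf1a and Casp8 in rising over stem cells in hepatocyte-like cells (1.38 ± 0.20) and in adult hepatocytes (1.97 ± 0.20). The collagens, Acta2, Des and Postn of the stellate cell and fibroblast list rose in hepatocyte-like cells over adult hepatocytes, whereas Lrat, Reln and Dcn fell, and the part of either in these receptor differences was not tested.

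In the 21 measured genes of the TNF receptor signalling complex, 2 rose and 0 fell in hepatocyte-like cells relative to stem cells, 4 rose and 0 fell relative to adult hepatocytes, and 5 rose and 2 fell in adult hepatocytes relative to stem cells, with median differences of 0.33, -0.04 and 0.18. Each of the 4 rises over adult hepatocytes was small and was lost under at least 1 alternative: Mapkapk2 (1.14) and Tab1 (1.18) with cyclic loess (0.81 and 0.96), Tnip1 (1.09) with quantile normalization again (0.93) and cyclic loess (0.82), and Tnfaip3 (1.12) and Mapkapk2 without hepatocyte-like replicate 3 (0.93 and 0.997). Mapkapk2, a kinase that phosphorylates RIPK1, rose by 2.36 ± 0.21 in hepatocyte-like cells over stem cells, and Tnfaip3, the ubiquitin-editing enzyme A20, rose by 1.69 ± 0.19. Cyld, a deubiquitinase of the complex, rose by 1.50 ± 0.28 in adult hepatocytes over stem cells. Among 8 NF-kappaB genes, 1 rose and 1 fell in hepatocyte-like cells relative to stem cells, 1 rose and 0 fell relative to adult hepatocytes, and 2 rose and 1 fell in adult hepatocytes relative to stem cells, with median differences of 0.38, -0.01 and 0.01. Rel, which rose by 1.11 in adult hepatocytes, was not called without adult hepatocyte replicate 1 (0.95). Nfkbiz, an NF-kappaB cofactor, rose over stem cells by 1.64 ± 0.16 in hepatocyte-like cells and by 1.59 ± 0.16 in adult hepatocytes, and Relb, a subunit of the alternative NF-kappaB route, fell by 1.23 ± 0.21 and by 1.87 ± 0.21.

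The necroptosis kinase gene Ripk3 and its effector gene Mlkl had unlike patterns. Ripk3 read 6.36, 5.36 and 5.53 in hepatocyte-like cells, 5.57, 5.25 and 4.96 in adult hepatocytes, and 7.81, 8.29, 8.38 and 8.05 in stem cells. It fell relative to stem cells by 2.38 ± 0.25 in hepatocyte-like cells (limma, adjusted p = 1.42e-05) and by 2.88 ± 0.25 in adult hepatocytes (limma, adjusted p = 8.17e-07). Mlkl read 4.82, 4.73 and 4.62 in hepatocyte-like cells, 7.39, 6.38 and 6.51 in adult hepatocytes, and 4.94, 4.32, 4.67 and 4.61 in stem cells. No group was high in both genes, and Mlkl fell by 2.04 ± 0.25 in hepatocyte-like cells relative to adult hepatocytes (limma, adjusted p = 2.87e-05). Of the 4 necroptosis genes, 0 rose and 1 fell in hepatocyte-like cells relative to stem cells, 0 rose and 2 fell relative to adult hepatocytes, and 1 rose and 1 fell in adult hepatocytes relative to stem cells, with median differences of -0.41, -0.39 and -0.11.

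Downstream of the receptors, 10 executioner and apoptosome genes gave 1 that rose and 1 that fell in hepatocyte-like cells relative to stem cells, 3 and 0 relative to adult hepatocytes, and 1 and 5 in adult hepatocytes relative to stem cells, with median differences of 0.03, 0.28 and -0.78. Casp2, Dffb and Htra2 were called near the threshold. Against adult hepatocytes in hepatocyte-like cells, Casp2 (1.08) was lost with quantile normalization again (0.97), cyclic loess (0.89) and without adult hepatocyte replicate 2 (0.94), and Dffb (1.09) without adult hepatocyte replicate 2 (0.96). In adult hepatocytes against stem cells, Casp2 (-1.06) was lost under the same settings (-0.93, -0.82 and -0.92), Dffb (-1.0004) without adult hepatocyte replicate 2 (-0.88), stem cell replicate 2 (-0.97) or stem cell replicate 3 (-0.93), and Htra2 (-1.18) with cyclic loess (-0.72) and without stem cell replicate 2 (-0.98). Apaf1, the scaffold of the apoptosome, read 8.85, 9.31 and 9.16 in hepatocyte-like cells, 5.41, 6.05 and 6.07 in adult hepatocytes, and 8.08, 8.19, 8.10 and 8.14 in stem cells. It rose by 3.26 ± 0.20 in hepatocyte-like cells over adult hepatocytes (limma, adjusted p = 3.68e-08), and its difference from stem cells was 0.97 ± 0.19 (limma, adjusted p = 0.00159), just short of a call, and 1.10 and called without hepatocyte-like replicate 1. Casp6, an effector caspase, rose over stem cells by 1.44 ± 0.18 in hepatocyte-like cells and by 1.57 ± 0.18 in adult hepatocytes, the direction of Casp8. Parp1, a caspase substrate and DNA repair enzyme, fell by 2.29 ± 0.26 in hepatocyte-like cells and by 2.60 ± 0.26 in adult hepatocytes relative to stem cells.

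Among 15 BCL-2 family genes measured beside Bid, 4 rose and 0 fell in hepatocyte-like cells relative to stem cells. Relative to adult hepatocytes, 4 rose and 0 fell in hepatocyte-like cells. In adult hepatocytes relative to stem cells 0 rose and 3 fell. The median differences were 0.16, 0.26 and 0.09. Mcl1, 1 of the 3 that fell (-1.12), was not called with cyclic loess (-0.58) or with the mean over its clusters (-0.74), and Bcl2, which rose by 1.65 in hepatocyte-like cells over stem cells, was not called with the mean over its clusters (0.96). The genes that rose in hepatocyte-like cells include both killers and protectors. Pmaip1, which encodes the pro-death protein NOXA, read 8.13, 9.42 and 9.42 in hepatocyte-like cells, 5.44, 5.29 and 5.38 in adult hepatocytes, and 7.34, 7.22, 7.82 and 7.11 in stem cells, and it rose by 3.62 ± 0.31 over adult hepatocytes and by 1.62 ± 0.29 over stem cells. Bcl2l11, which encodes the pro-death protein BIM, rose by 1.99 ± 0.27 and 1.70 ± 0.26, and Bcl2l1, which encodes the protective BCL-XL, rose by 1.47 ± 0.25 and 1.09 ± 0.23 in the same comparisons. Against stem cells Bcl2l1 was not called when hepatocyte-like replicate 2 (0.89), hepatocyte-like replicate 3 (0.99) or stem cell replicate 1 (0.99) was left out. Bak1, a pore-forming effector, rose by 1.20 ± 0.26 in hepatocyte-like cells relative to adult hepatocytes, a difference that was 0.87 and not called with cyclic loess, and it fell by 1.85 ± 0.24 in adult hepatocytes relative to stem cells.

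Of 13 further regulators of caspases measured beside Xiap, 1 rose and 1 fell in hepatocyte-like cells relative to stem cells, 2 rose and 1 fell relative to adult hepatocytes, and 2 rose and 1 fell in adult hepatocytes relative to stem cells, with median differences of 0.06, 0.05 and 0.11. The gene that fell in hepatocyte-like cells relative to stem cells, Birc5 (-1.51), was not called without hepatocyte-like replicate 2 (-0.82), stem cell replicate 1 (-1.43; adjusted p = 0.0501) or stem cell replicate 3 (-1.43; adjusted p = 0.0542). Pea15a, a death effector domain protein that can bind FADD and caspase-8, read 9.53, 10.35 and 10.12 in hepatocyte-like cells, 7.80, 7.57 and 7.76 in adult hepatocytes, and 7.18, 7.25, 7.04 and 7.18 in stem cells. It rose by 2.84 ± 0.19 in hepatocyte-like cells over stem cells (limma, adjusted p = 3.14e-07) and by 2.29 ± 0.20 over adult hepatocytes (limma, adjusted p = 1.31e-06). Hepatocyte-like cells thus had the highest Pea15a, while Cflar, the other inhibitor that carries a death effector domain, was highest in adult hepatocytes. Of 4 other initiator and inflammatory caspase genes, 2 rose and 0 fell in hepatocyte-like cells relative to stem cells, 2 rose and 1 fell relative to adult hepatocytes, and 1 rose and 0 fell in adult hepatocytes relative to stem cells, with median differences of 0.82, 0.47 and 0.30. The fall and the adult hepatocyte rise were both Casp1 (-1.01 and 1.02), and neither was called with quantile normalization again (-0.92 and 0.91), median centring (-0.99 and 0.92), cyclic loess (-0.87 and 0.89), array weights (-0.92 and 0.91) or without adult hepatocyte replicate 1 (-0.79 and 0.80). The fall was also lost without hepatocyte-like replicate 2 (-0.94) or adult hepatocyte replicate 3 (-0.999), the rise without stem cell replicate 1 (0.91), and the rise of Casp4 over adult hepatocytes (1.36) without hepatocyte-like replicate 3 (0.84). Casp12, a caspase of the endoplasmic reticulum, rose in hepatocyte-like cells by 2.48 ± 0.22 over stem cells and by 2.13 ± 0.23 over adult hepatocytes. Its means of 3.15 in stem cells and 3.50 in adult hepatocytes lay below every array median, so the size of these differences is uncertain.

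The genes whose pattern over the 10 arrays was closest to each called gene were found by the root mean square difference of log2 values after each gene was centred on its own mean, among 18210 protein-coding genes. For Fas these were Slc39a8 (0.31), Cobll1 (0.34) and Rdh10 (0.36). For Tnfrsf10b they were Plp2 (0.35), Cdkn1a (0.36) and Myof (0.42). Tnfrsf1a was closest to Rin3 (0.15), Pxk (0.18) and Tmem9b (0.22), and Casp8 to Serinc1 (0.23), Mid2 (0.25) and Cpeb4 (0.28). Cflar was closest to Sorbs2 (0.17), Dnajb9 (0.24) and Etfdh (0.24), and Xiap to Atpsckmt (0.11), Rnf139 (0.12) and Yipf6 (0.13). These distances are descriptions of 10 arrays in 3 groups and were not tested.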

How the data were processed

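Transcript levels of 10 mouse RNA samples were measured on arrays. The authors deposited 1 table of log2 values, 41345 transcript clusters by 10 arrays, which was used as it stands. Per the labels' protocols, RNA was isolated with TRIzol, cleaned on columns, biotin-labelled and hybridised by the Affymetrix protocol. Among the tools that the submitters' processing notes list, with no role or order, are Transcriptome Analysis Console, R 3.3.1, oligo 1.38.0 and RMA. That the scale is log2 was read from the values, 1.27 to 13.58. No cluster was tested against its background, since scanner files were not used, and no batch is given in the labels.

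In the platform annotation 23521 clusters had exactly 1 symbol, while 1814 had several and 16010 had none. Where a gene had several clusters (1082 genes), the one with the highest mean was kept, which left 22180 genes. Entrez identifiers of 23328 clusters were found in RefSeq (GRCm38.p6), and 0 symbols had changed. Promoter windows were matched by symbol. Of the 9 listed genes 8 had a window, and Tnfrsf10b had none.

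Differences were tested by 2-sided moderated tests of limma 3.58.1 (lmFit, then eBayes; R 4.3.3) in 1 fit of all 10 arrays with group as the term, 7 residual degrees of freedom and a prior of 5.34. P-values were adjusted over all genes by the Benjamini-Hochberg method. The script was tested on simulated data. Replicate numbers were not taken to pair the samples, since nothing in the labels says that they do. Deviations from group means correlated between -0.19 and 0.14 for samples of equal number. For samples of unequal number the range was -0.25 to 0.23. With so few arrays per group, these correlations cannot decide whether samples were paired. Genes beyond the 9 were named by a rule of at most 4 called genes per list and comparison in order of size, plus fixed ligands and effectors. The genes and lists were chosen with earlier results of these data known. The plots were made in matplotlib 3.10.9 under Python 3.11.15.

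Alternatives covered the normalization (quantile again, cyclic loess, median centring), the genes (without those with a mean under 5, every cluster, the mean of a gene's clusters), the model (array weights, trended robust variance, a fit of the 2 groups alone, a replicate block), each array left out in turn and 2 other thresholds.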

Additional observations from a re-analysis of the deposited data

Results flagged for a closer look

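Casp1, an inflammatory caspase gene among the further pathway genes, read 2.77 in embryonic stem cell replicate 1, while the other stem cell arrays lay between 3.19 and 3.26. The gap to the nearest array was 0.857 of the group's whole range, above Dixon's 95% critical value for 4 samples. The check covered the stem cell arrays for the 8 measured death receptor genes and the 48 further named genes. Chance flags about 1 in 20 such groups. Casp1 was the only gene flagged, and none of the 8 measured death receptor genes was. All its stem cell values lay below every array median.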

How the results depend on the processing

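For the 8 measured death receptor genes, 480 values under the alternatives were set against 24 differences: 473 stayed on their side of the threshold, 7 passed it where the reported value had not, 0 lost a call and 0 turned a called direction. Uncalled differences near 0 between hepatocyte-like cells and adult hepatocytes took either sign across the alternatives, from -0.28 to 0.32 for Fas, -0.20 to 0.18 for Tnfrsf1a, -0.47 to 0.19 for Casp8 and -0.29 to 0.20 for Bid. The 7 were Xiap between hepatocyte-like cells and adult hepatocytes with quantile normalization again (-1.10), cyclic loess (-1.24), array weights (-1.01), without hepatocyte-like replicate 3 (-1.08) and without adult hepatocyte replicate 2 (-1.02), and, against stem cells, Tnfrsf10b without hepatocyte-like replicate 1 (1.04) and Bid without hepatocyte-like replicate 3 (-1.13). With an adjusted p under 0.05 and no minimum difference, the genes called between hepatocyte-like cells and adult hepatocytes were 4 in place of 2, the added ones being Fadd and Xiap. Against stem cells they were 6 in place of 4 for hepatocyte-like cells, with Tnfrsf10b and Bid added. For adult hepatocytes against stem cells they were 7 in place of 6, with Bid added. With each array left out in turn, the counts were 4 to 5 for hepatocyte-like against stem cells, 2 to 3 for hepatocyte-like cells relative to adult hepatocytes and 6 for adult hepatocytes against stem cells. With the replicate block the counts were 4, 2 and 6, as without it, with stem cell replicate 4 alone in its block. Of 2856 values of the 48 further named genes, 51 lost a call, 16 gained one and 0 turned a called direction; the cause was not tested. Signals near or below the array medians limit how large a fold can be read. Examples are Fas and Tnfrsf23 in stem cells and Tnfrsf10b and Eda2r in adult hepatocytes. Further ones are Tnfsf10 in hepatocyte-like and stem cells and Casp12 in adult hepatocytes and stem cells. Cflar in stem cells and Mlkl in hepatocyte-like and stem cells also belong here.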

Other observations

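The promoter windows of the listed genes differ in base composition. The window of Casp8 had 42% G or C and 5 CpG sites, and that of Cflar 45% and 12, against medians of 52.7% and 7 over 32851 windows. Fadd had 60.3% and 22 CpG sites, and Bid 63.3% and 22. Fas had 59% and 14, and Tnfrsf1a 57% and 11. Xiap had 3 annotated windows, with 20, 5 and 2 CpG sites. Methylation was not measured.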
